A study of Epimedium pubescens with 12 samples.

Results

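Leaf miRNAs of Epimedium pubescens, a perennial medicinal herb, were compared between 90 days (90d) and 30 days (30d) of treatment, over both phosphorus levels. The comparison used 12 of the 12 libraries of the series and all 220 miRNAs of the table, 22 of them known and the rest predicted. One-year-old seedlings in sand culture received a nutrient solution with 0 mmol/L inorganic phosphate (-P, phosphorus deficiency) or 1 mmol/L (+P, normal supply), solutions that also differed in other salts, and leaves were taken for small RNA sequencing. The groups were 30d -P, 30d +P, 90d -P and 90d +P, each with replicates A, B and C. All 6 libraries of 90d were set against all 6 of 30d in a model that also held the phosphorus level, so the result is the difference between times averaged over both levels. A 90d plant was older, had been treated for longer and, under -P, had reached the stage at which the study saw damage symptoms, and these cannot be told apart from time itself. Whole leaves were sequenced, so fewer cells of a type and less RNA per cell cannot be told apart either.

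Plant miRNAs are short RNAs cut from hairpin precursors, and they guide the slicing or translational repression of mRNAs to which they pair. Many conserved families target transcription factors, and in leaves they are best known for setting organ polarity, growth and the passage from juvenile to adult leaves. In Arabidopsis, miR156 falls and miR172 rises as the shoot ages, while other families such as miR395, miR398 and miR399 respond to sulfate, copper and phosphate supply. Known miRNAs carry the prefix aqc, for names given first in Aquilegia coerulea, and predicted miRNAs carry a running number (novel_N).

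The study paired 3 predicted miRNAs with target genes in its comparison of 30d -P with 90d -P. It also designed forward primers for their measurement by PCR. These primers are shown because novel_196 had the smallest p of the time comparison, while novel_188 was too scarce to be tested and novel_269 had opposite signs in the 2 levels. Such primers may carry added bases at the 5′ end, so no seed is marked and no base is in capitals. The primers were 24, 23 and 24 bases long, and they read 5′ to 3′ as follows.
novel_188: cgccatgttgtcctcttgcttatc
novel_196: ccgtttcattgtctgttctgccc
novel_269: cgcgctttctttgcaggttttgat

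Library totals ranged from 380316 to 1466897 miRNA counts, and a library held 146 to 179 miRNAs with at least 1 count. Mean totals were 737141 ± 382110 (SD, n = 6) at 30d and 1183965 ± 194457 (SD, n = 6) at 90d, an exact permutation p of 0.05 that was 0.0975 after Benjamini-Hochberg adjustment over 6 measures of composition. For the library total difference, leaving out the C library of 30d +P gave an exact permutation p of 0.01, and leaving out that of 90d +P gave 0.045. These were the deepest library of 30d and the shallowest of 90d, so leaving either out widens the difference by construction. Of 15 alternatives, 12 left the result of the test the same. The deposited unit, TPM, is here a miRNA's count scaled to the total of its library, with no term for length. On that scale a miRNA with 0 counts could have been present at up to 2.05 TPM (30d +P replicate C, the deepest library) or 7.89 TPM (30d +P replicate B), with 3 counts as the limit. After a filter on low counts, 137 miRNAs were tested (16 known and 121 predicted), which held 99.98% of counts. A miRNA scarce at 1 time could pass this filter through the libraries of the other time alone.

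The C libraries of both 30d groups stood apart from the other 30d libraries. Over the 137 tested miRNAs, 30d -P replicate C was nearer to the 90d mean than to the mean of the other 30d libraries for 84 miRNAs, and 30d +P replicate C for 83. The A and B libraries of 30d were nearer to the 90d mean for 36 to 44 miRNAs. The labels give no extraction or sequencing batch, so the part of any batch in this was not tested. At 30d, same-lettered libraries of -P and +P also deviated together from their group means, with correlations across miRNAs of 0.455 for A, 0.236 for B and 0.211 for C, whereas the tests treat the 6 libraries of 30d as independent. Values without both C libraries are given below for the miRNAs they touch most. The libraries were picked for their position, so groups without them differ more by construction, and these values are no added support.

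The leaf miRNA pool was more uneven at 90d than at 30d. aqc-miR166e, whose family pairs with mRNAs of the HD-ZIP III transcription factors that set the upper side of a leaf, held 35.4 to 53.0% of counts in the 30d libraries and 47.7 to 73.1% in the 90d libraries. The ranges overlapped, and the mean share was 44.6% ± 6.69 (SD, n = 6) at 30d against 61.4% ± 10.02 (SD, n = 6) at 90d. The difference of 16.8 percentage points had an exact two-sided permutation p of 0.01 (time labels permuted within each phosphorus level), and the Benjamini-Hochberg adjusted value over the 6 measures was 0.03. It was 11.6 points under -P and 22.0 under +P. The smallest p that the 400 arrangements allow is 0.005. Without both 30d C libraries the difference was 18.7 points with an exact permutation p of 0.05.

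The effective number of miRNAs, which is the number of equally abundant miRNAs that would give the same Shannon entropy, was 7.47 ± 0.854 (SD, n = 6) at 30d and 5.30 ± 1.19 (SD, n = 6) at 90d. The exact permutation p was 0.01 (adjusted 0.03), and the mean was lower by 1.14 under -P and by 3.20 under +P (differences of -1.14 and -3.20). Without both 30d C libraries the effective number difference was -2.27 with an exact permutation p of 0.05. The number of miRNAs detected was 163 at both times on average (162.8 and 163.2), with an exact permutation p of 0.965. The known miRNAs as a class held 61.8% ± 8.38 (SD, n = 6) of counts at 30d and 72.4% ± 6.84 (SD, n = 6) at 90d, and that difference did not pass the test (exact permutation p = 0.065, adjusted 0.0975). With aqc-miR166e taken out of the counts, the known share was 31.6% at 30d and 28.2% at 90d (exact permutation p = 0.36). For the known miRNA share difference, 10.6 points, leaving out 90d +P replicate C gave 12.9 points and an exact permutation p of 0.005. That library had the lowest known share at 90d (61.3%), so leaving it out widens the difference by construction. Of 15 alternatives, the other 14 left the result of the test the same.

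**Figure D1:**
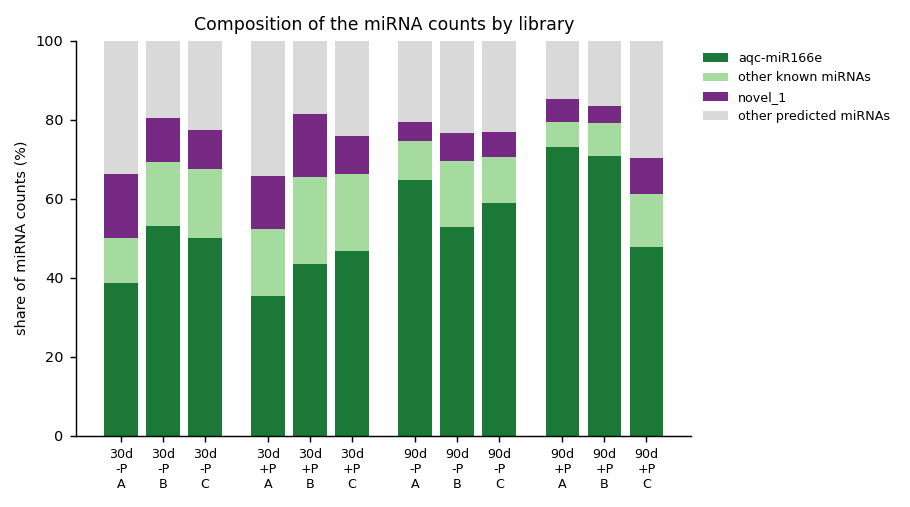
Stacked bars give the share of miRNA counts (%) held by aqc-miR166e, the other known miRNAs, novel_1 and the other predicted miRNAs in each of the 12 libraries. aqc-miR166e takes 35.4 to 53.0% at 30d and 47.7 to 73.1% at 90d, and novel_1 takes a smaller share in every 90d library than in any 30d library.

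Several abundant miRNAs held a smaller share at 90d. novel_1, the predicted miRNA with the largest mean share, was at 96372 to 161972 TPM in the 30d libraries (median 122828) and 44770 to 90481 TPM in the 90d libraries (median 60399). All 6 values of 90d lay below all 6 of 30d, and the mean share went from 12.7% to 6.26%. aqc-miR166c, of the same family as aqc-miR166e, held 9.41% of counts at 30d and 5.93% at 90d, and novel_3 held 7.95% and 4.88%, with overlapping libraries in both. novel_5 had a larger share at 90d (1.44% against 0.616%). The shares of a library are not independent of that of aqc-miR166e, so the model compared levels after TMM scaling. On that scale the log2 fold change was -0.50 (SE 0.32) for novel_1 and 0.86 (SE 0.33) for aqc-miR166e, with Benjamini-Hochberg adjusted p of 0.303 and 0.121 in edgeR's quasi-likelihood test. With library totals in place of TMM, the value for aqc-miR166e was 0.46. For novel_1, DESeq2 gave -0.75 (SE 0.29, DESeq2 adjusted p = 0.0401). Over 29 alternatives the log2 fold change of novel_1 lay between -1.07 and -0.38. Its adjusted p was under 0.05 in 2 of the 29, DESeq2 and the fit without both 30d C libraries.

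Whether any single miRNA differed between 90d and 30d on average over the phosphorus levels was tested with edgeR's quasi-likelihood test on the counts. A miRNA that changed mainly at 1 level can also pass such a test. With Benjamini-Hochberg adjustment over the 137 miRNAs, 0 reached an adjusted p under 0.05 (0%). The lowest adjusted p belonged to novel_196, at 0.0601. At an unadjusted p under 0.05 there were 38. The study's rule for miRNAs, an unadjusted p under 0.05 with a log2 fold change of at least 1 in either direction (the unadjusted rule), was passed by 37 of the 137, or 27% of those tested. Of these 19 were higher at 90d (13.9%) and 18 lower (13.1%), with log2 fold changes from -3.88 to 3.26. The 1 miRNA under 0.05 that did not pass the rule was aqc-miR166e. DESeq2, the tool the study used, gave 33 with an adjusted p under 0.05, of which 12 were higher and 21 lower, and 28 of them were among the 37. The newer quasi-likelihood method of edgeR gave 11, all among the 37. Without both 30d C libraries edgeR gave 36, of which 25 were among the 37, and without 30d -P replicate C alone it gave 25.

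The split by direction depended on how libraries were scaled. It was 19 higher and 18 lower with TMM, 13 and 25 with RLE size factors, 11 and 30 with library totals, 9 and 27 with TMMwsp, and 26 and 19 when aqc-miR166e was kept out of the totals. Relative to TMM these scalings shifted the median over all tested miRNAs by -0.23, -0.48, -0.39 and 0.09 on the log2 scale.

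**Figure D2:**
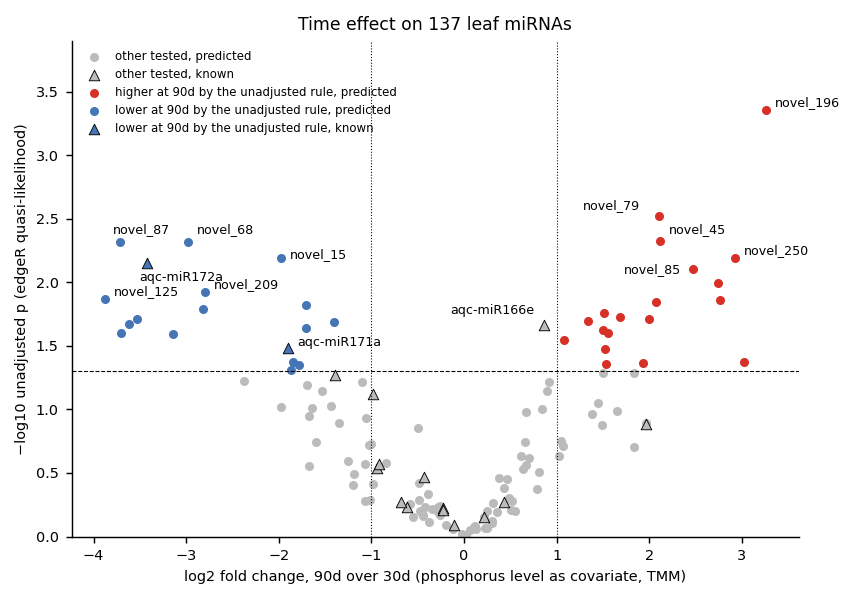
Each point is 1 of the 137 tested miRNAs, with its log2 fold change of 90d over 30d on the x axis and -log10 of the unadjusted edgeR p on the y axis, triangles for known miRNAs and lines at the limits of the unadjusted rule. The 19 higher miRNAs are all predicted, the 18 lower include aqc-miR172a and aqc-miR171a, and none of the 137 had an adjusted p under 0.05.

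novel_196 had the smallest p. Its level was 28.1, 74.4 and 59.8 TPM at 30d under -P, 92.3, 26.3 and 126 TPM at 30d under +P, 957, 106 and 755 TPM at 90d under -P, and 273, 892 and 185 TPM at 90d under +P. All 90d libraries but 90d -P replicate B lay above all 30d libraries, and that one was exceeded only by 30d +P replicate C. The log2 fold change was 3.26 (SE 0.72), and edgeR's quasi-likelihood test gave the adjusted p of 0.0601. The change was 3.46 under -P and 3.06 under +P, and their difference was 0.40 (SE 1.37). Over 29 alternatives its log2 fold change stayed between 2.53 and 3.70, and its adjusted p ranged from 7.89e-05 to 0.188, under 0.05 in 10 of them.

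The other predicted miRNAs with the smallest p on the higher side were novel_79, novel_45, novel_250 and novel_85. No function is given for any of them here, but the study paired novel_79 with a target gene in its comparison of 90d -P with 90d +P. novel_250 was scarce at 30d, where the libraries gave 0, 2.61 and 4.27 TPM under -P and 0, 0 and 2.05 TPM under +P, and measured 8.31, 9.87 and 10.8 TPM at 90d under -P and 12.5, 16.5 and 6.61 TPM under +P. The groups did not overlap, but the 30d libraries together held 8 counts and the 90d libraries 77. novel_250 passed the filter on low counts only through 90d libraries, where it was high, so its presence among those tested is no added support. The fitted log2 fold change was 2.93 (SE 0.92). novel_85 was at 30.0, 0 and 25.6 TPM at 30d under -P, 29.6, 2.63 and 21.1 TPM at 30d under +P, 57.5, 40.2 and 62.6 TPM at 90d under -P, and 124, 75.2 and 50.7 TPM at 90d under +P. Here too each 90d library lay above each 30d library, and the log2 fold change was 2.47 (SE 0.80).

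novel_79 ran from 5.63 TPM at its lowest to 20.5 at its highest in 30d (median 7.76) and from 16.6 to 62.8 TPM in 90d (median 33.2). The overlap came from the 30d +P libraries B and C, at 18.4 and 20.5 TPM, and 90d -P replicate A, at 16.6 TPM. novel_45 was 124 to 326 TPM at 30d (median 179) and 227 to 1480 TPM at 90d (median 598), and its change was 1.11 under -P and 3.13 under +P on the log2 scale. The log2 fold changes of novel_79 and novel_45 over both levels were 2.10 (SE 0.59) and 2.12 (SE 0.64), and the edgeR adjusted p was 0.121 for both, as it was for novel_250 and novel_85.

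The number of miRNAs whose 6 libraries of 90d did not overlap with the 6 of 30d in TPM was 4 of 137 (2.92%). They were novel_250, novel_85 and novel_219, higher at 90d, and novel_1, lower at 90d. Of these, novel_250 had passed the filter on low counts only through 90d libraries. After TMM scaling, the libraries of novel_1 and novel_219 overlapped between the times, and those of novel_250 and novel_85 did not. For novel_1 the TMM factor was 0.688 in 90d +P replicate C and 1.85 in 30d +P replicate A, which puts the former above the latter. novel_219 was named after its values were seen. It was at 7.83 to 19.9 TPM at 30d (median 12.7) and 20.5 to 38.3 TPM at 90d (median 25.5), and edgeR fitted a log2 fold change of 1.51 (SE 0.56, adjusted p = 0.121). Leaving out 30d -P replicate C gave 10 such miRNAs, leaving out 30d +P replicate C also gave 10, and leaving out both gave 35, against 4 to 7 without any other single library.

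**Figure D3:**
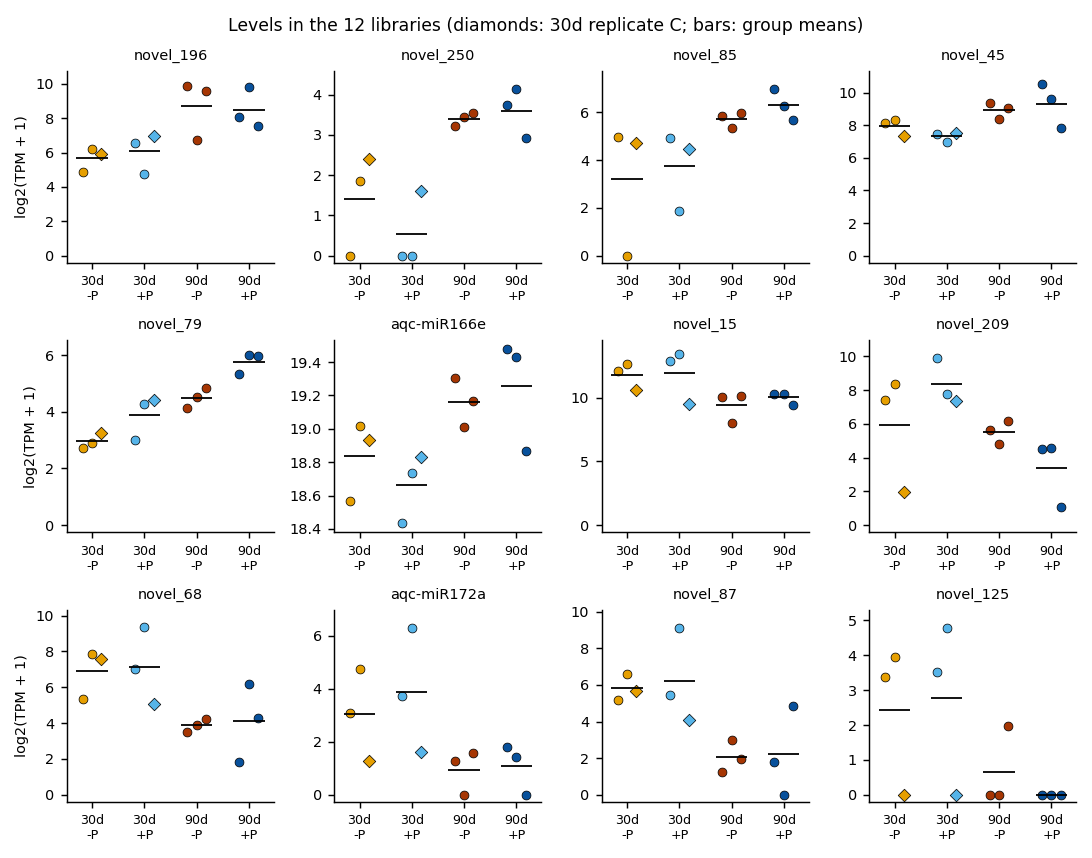
Levels of 12 miRNAs in log2(TPM + 1) are plotted for each library by group, with group means as bars and diamonds for the C libraries of 30d. novel_250 and novel_85 do not overlap between 30d and 90d, whereas in novel_15 and aqc-miR172a the diamonds lie at or near the level of 90d.

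On the lower side, the predicted miRNAs with the smallest p were novel_68, novel_87, novel_15, novel_209 and novel_125. novel_15 was the most abundant of them, at 4460, 6532 and 1553 TPM at 30d under -P, 7492, 11075 and 736 TPM at 30d under +P, 1076, 259 and 1141 TPM at 90d under -P, and 1283, 1260 and 706 TPM at 90d under +P. Its A and B libraries at 30d were all above every 90d library, while 30d +P replicate C fell inside the 90d range. Its fitted change on the log2 scale was -1.98 (SE 0.62), and without both 30d C libraries it was -2.60 (SE 0.49, edgeR adjusted p = 0.00806).

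novel_87 was at 35.6, 96.6 and 49.9 TPM at 30d under -P, 43.5, 544 and 15.7 TPM at 30d under +P, 1.38, 6.83 and 2.93 TPM at 90d under -P, and 2.50, 0 and 27.5 TPM at 90d under +P. The only overlap was 90d +P replicate C, above 30d +P replicate C. Its log2 fold change was -3.72 (SE 1.12), with -3.98 under -P and -3.47 under +P. novel_68 was 32.0 to 657 TPM at 30d (median 161) and 2.50 to 70.3 TPM at 90d (median 15.6), a log2 fold change of -2.98 (SE 0.90).

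novel_209 was 2.85 to 951 TPM at 30d (median 194) and 1.10 to 71.4 TPM at 90d (median 24.9), a log2 fold change of -2.80 (SE 0.97), and its lowest 30d library was 30d -P replicate C. Leaving out both 30d C libraries put novel_209 at -3.62 (SE 0.92, edgeR adjusted p = 0.0172) on that scale. novel_125 was scarce, with 32 counts in the 30d libraries and 3 in those of 90d, and it passed the filter on low counts only through 30d libraries. At 30d it measured 9.38, 14.4 and 0 TPM under -P and 10.4, 26.3 and 0 TPM under +P, so both 30d C libraries were at 0, and in 90d only -P replicate C held any (2.93 TPM). The pooled level at 30d was 17.1 times that at 90d, with an exact 95% interval from counting alone of 5.36 to 87.4. The edgeR adjusted p was 0.121 for each of these 5 miRNAs. For novel_125 it was 0.0162 without both 30d C libraries.

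Among the 37 miRNAs of the unadjusted rule, the C libraries of 30d were near 90d about as often as among all tested miRNAs. For 24 of the 37 (64.9%) the level in 30d -P replicate C was nearer to the 90d mean than to the mean of the other 30d libraries, beside 61.3% of all 137. In 30d +P replicate C this held for 20 (54.1%), beside 60.6% of all 137. The other 30d libraries gave 4 or 5, but the 37 were chosen for a difference between times in these same libraries, which favours low counts. novel_5, which passed the rule on the higher side, is an example with both 30d C libraries near 90d. It was at 2084, 1871 and 12529 TPM at 30d under -P, 3662, 2553 and 14244 TPM at 30d under +P, and 10921 to 17000 TPM in 90d. Its log2 fold change was 1.55 (SE 0.62), and the 30d C libraries lay within the 90d range. Without them it was 2.79 (SE 0.42, edgeR adjusted p = 0.00309). novel_5 was named after its values were seen.

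By abundance, 29 tested miRNAs had a mean level over 1000 TPM, and 3 of these passed the unadjusted rule as higher and 1 as lower. In the class from 100 to 1000 TPM, 6 were higher and 5 lower of 33, and from 10 to 100 TPM 9 were higher and 9 lower of 60. Under 10 TPM, 1 was higher and 3 lower of 15. Neither aqc-miR166e nor novel_1, which had the largest changes in share, passed the rule.

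The known miRNAs were described by family. Of the 22 listed, 16 were tested, 0 passed the unadjusted rule as higher and 2 as lower, beside 19 and 18 of all 137 (13.9 and 13.1%). Their median log2 fold change was -0.52 against -0.11 for all tested miRNAs. The sign was negative for 12 of the 16 known and for 71 of all 137 with TMM. The count for the known moved with the scaling, from 11 to 14, as did the median of all tested miRNAs, which was -0.58 with library totals.

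Among the phase change families (miR156, miR172 and miR535), 4 miRNAs were listed and 1 was tested. aqc-miR172a, whose family pairs with mRNAs of AP2-like factors that repress flowering and adult traits in Arabidopsis, measured 7.50, 26.1 and 1.42 TPM at 30d under -P and 12.2, 76.3 and 2.05 TPM under +P. In 90d the values were 1.38, 0 and 1.96 TPM under -P and 2.50, 1.65 and 0 TPM under +P. The A and B libraries of 30d lay above all of 90d and the C libraries of 30d lay within the 90d range. The fitted log2 fold change was -3.43 (SE 1.09, edgeR adjusted p = 0.121), on 64 counts at 30d and 9 at 90d. aqc-miR172a passed the filter on low counts only through 30d libraries. The change was -3.38 under -P and -3.47 under +P, and its adjusted p was under 0.05 in 4 of 28 alternatives. Without both 30d C libraries aqc-miR172a was at -3.92 (SE 0.95, edgeR adjusted p = 0.0162).

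aqc-miR156b, of the family that pairs with SPL factors in Arabidopsis, was too scarce to be tested, with 29 counts at 30d and 6 at 90d. It was at 2.63 to 11.4 TPM at 30d (median 6.75) and 0 to 2.93 TPM at 90d (median 0). Without the filter on low counts its value was -3.24 (SE 1.05) on the log2 scale, which meets the unadjusted rule, and the edgeR adjusted p over 220 miRNAs was 0.0964. Both aqc-miR156b and aqc-miR172a thus stood below 3 TPM in every 90d library. aqc-miR172b and aqc-miR535 each had 1 count in all libraries together.

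The miR171 family, which pairs with mRNAs of GRAS factors of the HAM type, held 2 members, both with a negative value, and a median log2 fold change of -1.65. aqc-miR171a was 11.4 to 121 TPM at 30d (median 34.6) and 0.826 to 21.5 TPM at 90d (median 8.61), and passed the rule with -1.90 (SE 0.81, edgeR adjusted p = 0.142). aqc-miR171f, at -1.39 (SE 0.66, edgeR adjusted p = 0.179), did not pass it. Without both 30d C libraries they were at -2.36 and -1.89, with edgeR adjusted p of 0.0499 and 0.0447. Both had a larger fitted change under +P (-3.13 and -2.04) than under -P (-0.76 and -0.75). How reads were divided between near-identical members of a family is uncertain.

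The miR166 family held 3 members, 1 with a positive and 2 with a negative value, none of which passed the rule. The log2 fold change was -0.23 (SE 0.42) for aqc-miR166a and -0.22 (SE 0.44) for aqc-miR166c, with edgeR adjusted p of 0.764 and 0.768, beside the 0.86 of aqc-miR166e. aqc-miR166a was 18706 to 31642 TPM at 30d (median 23120) and 8109 to 25090 TPM at 90d (median 12033). aqc-miR166c was 43510 to 144887 TPM at 30d and 32461 to 98629 TPM at 90d. The sign of each of the 3 members was the same in all 29 alternatives.

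**Figure D4:**
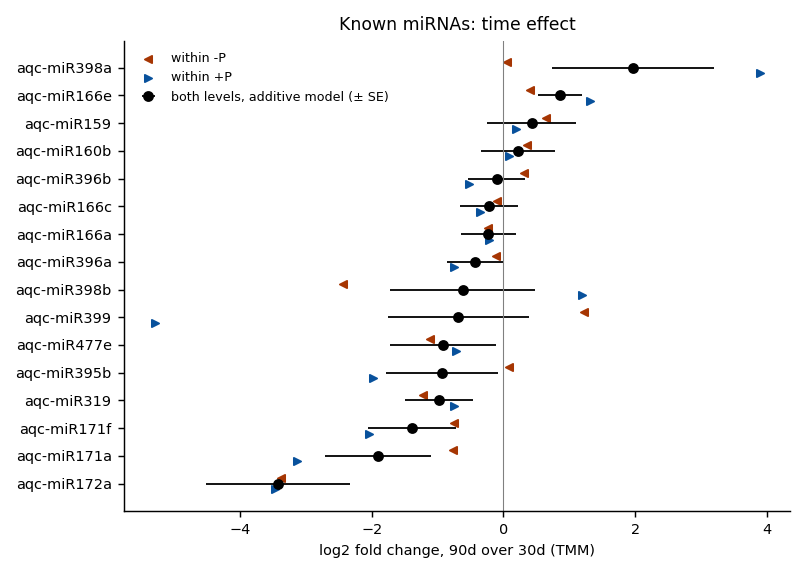
Log2 fold changes of 90d over 30d are plotted for the 16 tested known miRNAs, with black points and SE bars for both levels together and coloured triangles for the changes within -P and within +P. aqc-miR172a lies lowest with near equal values in both levels, while aqc-miR399 lies at 1.22 under -P and far below 0 under +P, where all 90d libraries held 0 counts.

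miR159 and miR319 pair with mRNAs of MYB and TCP factors. aqc-miR319 was 201 to 1022 TPM at 30d (median 777) and 154 to 314 TPM at 90d (median 212), and its value of -0.98 (SE 0.51, edgeR adjusted p = 0.216) did not pass. For aqc-miR319 the value without both 30d C libraries was -1.76 (SE 0.46, edgeR adjusted p = 0.0204). aqc-miR159 had 0.43 (SE 0.67, edgeR adjusted p = 0.739), and its sign turned with library totals (-0.06). aqc-miR160b, of a family that pairs with auxin response factors, had 0.22 (SE 0.56, edgeR adjusted p = 0.797) and turned negative with library totals (-0.15) and with TMMwsp (-0.02). Both values were smaller than their SE.

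The miR396 family, which pairs with growth-regulating factors, gave -0.43 (SE 0.43) for aqc-miR396a and -0.11 (SE 0.43) for aqc-miR396b, with edgeR adjusted p of 0.553 and 0.879. aqc-miR396b turned positive (0.06) with totals that left out aqc-miR166e. aqc-miR477e, which belongs to none of the families above, was 0 to 78.9 TPM at 30d (median 69.4) and 7.71 to 32.2 TPM at 90d (median 21.8), with -0.92 (SE 0.80, edgeR adjusted p = 0.478). Its 5 other 30d libraries lay at 42.3 TPM or above and its single 0 was 30d -P replicate C.

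Of the 7 miRNAs in nutrient families, 4 were tested and 0 passed the rule, beside 27% of all tested miRNAs. The median log2 fold change of the 4 was -0.65, against -0.11 for all, and with 4 members these numbers say little of the class. aqc-miR395b, of a family that pairs with sulfate assimilation mRNAs, had -0.94 (SE 0.85, edgeR adjusted p = 0.494). The miR398 family, which pairs with mRNAs of copper/zinc superoxide dismutase, gave 1.97 (SE 1.23) for aqc-miR398a and -0.62 (SE 1.10) for aqc-miR398b, with edgeR adjusted p of 0.293 and 0.764. aqc-miR398a ran from 6.96 to 224 TPM at 30d and from 30.4 to 1562 TPM at 90d. The 3 members of miR169, a family that pairs with NF-YA mRNAs, had 8 counts at 30d and 10 at 90d in all and were not tested.

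aqc-miR399, which in Arabidopsis represses the ubiquitin-conjugating enzyme PHO2 and so raises phosphate uptake, did not pass the test of a shared time effect, at -0.69 (SE 1.07, edgeR adjusted p = 0.739) on the log2 scale. Under -P it measured 9.38, 19.6 and 4.27 TPM at 30d and 22.8, 20.5 and 35.2 TPM at 90d. Under +P it measured 3.48, 7.89 and 6.82 TPM at 30d and 0 in all 3 libraries of 90d. In TPM each 90d library thus lay above each 30d library under -P and below each under +P. The closest -P pair, 90d replicate B and 30d replicate B, changes order after TMM scaling (factors 0.893 and 0.793). Under +P, the 30d values of A and B rest on 2 and 3 counts, at or under the limit that a count of 0 allows. There were 15 counts in 30d +P and 0 in 90d +P. The pooled level of 30d +P was 6.85 times the level that 3 counts over the 90d +P group would give. That ratio leaves out the counting error of the 15 counts, so it is no lower bound. The difference between the time effects of the 2 levels did not pass edgeR's test of the interaction after Benjamini-Hochberg adjustment (adjusted p = 0.530). The sign of the shared effect turned with the newer edgeR method (0.62), and its average over both levels stands between values of opposite sign.

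The direct test of whether the time effect differed between phosphorus levels was edgeR's quasi-likelihood test of the interaction. It gave 0 of 137 miRNAs with an adjusted p under 0.05 (0%), as did DESeq2. In edgeR 7 had an unadjusted p under 0.05, about as many as chance alone gives among 137. None of the 37 miRNAs past the unadjusted rule was among those 7. All 37 had the same sign in both levels, against 93 of the 137 tested (67.9%). A miRNA is called on the average of both levels, which favours equal signs, so this count is a description. Of the 37, 27 had the larger change under +P and 10 under -P, as did 90 and 47 of the 137. For the 19 higher the median log2 fold change was 1.61 under -P and 2.44 under +P, and for the 18 lower it was -2.05 and -2.73.

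**Figure D5:**
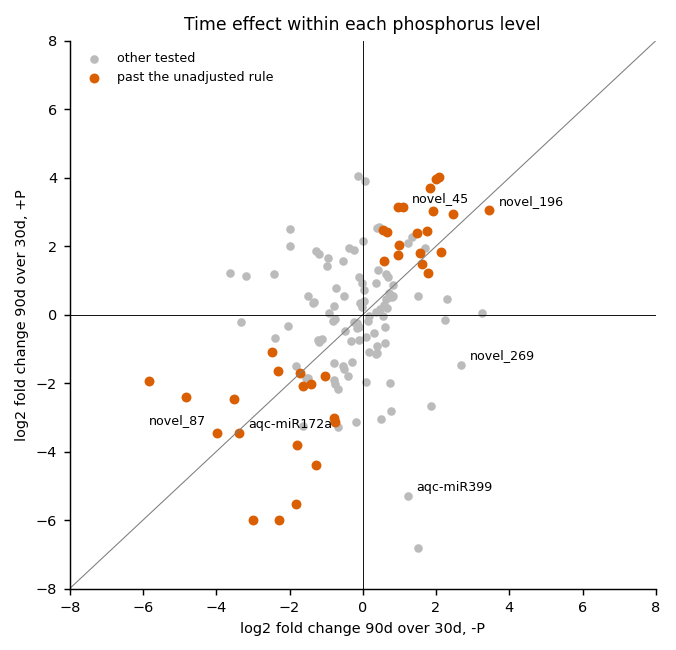
Each of the 137 tested miRNAs is placed by its log2 fold change of 90d over 30d under -P (x axis) and under +P (y axis), with the diagonal of equal change and the 37 past the unadjusted rule in orange. All 37 lie in the quadrants of equal sign, while novel_269 and aqc-miR399 lie in the quadrant of a positive change under -P and a negative one under +P.

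Of the other miRNAs that the study paired with targets between 30d -P and 90d -P, novel_269 was tested and did not pass the rule over both levels. The study's own comparison for these miRNAs held -P libraries only. Under -P, novel_269 measured 1.88, 1.31 and 2.85 TPM at 30d and 13.2, 12.1 and 10.8 TPM at 90d, a log2 fold change of 2.69. Under +P it measured 3.48, 18.4 and 15.0 TPM at 30d and 0.832, 5.79 and 2.20 TPM at 90d, a value of -1.47. The libraries did not overlap under -P and overlapped under +P. Over both levels the value was 0.51 (SE 1.01), and the difference between the levels was 4.16 (SE 1.50, edgeR adjusted p = 0.530).

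novel_188 had 2 counts in the 30d libraries and 47 in those of 90d, and did not pass the filter, so it was not among those tested. It was at 1.88, 0 and 0 TPM at 30d under -P, 1.74, 0 and 0 TPM at 30d under +P, 13.8, 5.31 and 8.80 TPM at 90d under -P, and 6.66, 2.48 and 0 TPM at 90d under +P. All 90d libraries but 90d +P replicate C lay above all 30d libraries, and all 30d values were below the limit that a count of 0 allows. The pooled level at 30d was 0.0683 of that at 90d, with an exact 95% interval from counting alone of 0.00804 to 0.261. In the fit without the filter, novel_188 had a log2 fold change of 3.17 (SE 1.21), which meets the unadjusted rule, and its edgeR adjusted p over 220 miRNAs was 0.109.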

How the data were processed

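Small RNA libraries came from a NEBNext kit per the labels. It marks no single molecules, so the intervals and limits given cover counting error alone. The authors discarded adapter and low-quality reads and those of other RNA classes, and predicted miRNAs with miREvo and mirdeep2. The submitters' processing notes name Bowtie and DESeq2, and no source used here gives the genome build. In the 1 table deposited by the authors, each miRNA has a raw count for each library. The deposited TPM values are these counts scaled to the same total in every library, and the deposited group means were not used. Per-sample columns outside the series numbered 0.

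Groups were taken from the labels, and every group held 3 libraries. The study's methods describe the replicates as biological, with 12 seedlings per replication, and do not say how many plants gave a library or whether a letter marks the same plants at both times. The time effect was tested with edgeR 4.0.16 (glmQLFit and glmQLFTest, the older quasi-likelihood method, two-sided) in R 4.3.3, with TMM scaling, phosphorus level as covariate, filterByExpr on the 4 groups at a minimum count of 10, and Benjamini-Hochberg adjustment over 137 miRNAs. The biological coefficient of variation came to 88.9% (common dispersion 0.791). The SE is the absolute log2 fold change divided by the square root of F. Changes within a level and the interaction came from a model of the 4 groups over the same 12 libraries. The fits were tested on simulated data first. Composition was compared by exact permutation of the time labels within each phosphorus level. No 2 libraries of a group differed by less than sampling noise.

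Named were all tested known miRNAs, the 5 predicted miRNAs with the smallest p in each direction, novel_188, novel_196, novel_269 and novel_87, and the 3 miRNAs that took the most counts. The comparison, the lists and the alternatives were chosen with earlier results of these data known. Family roles are background, and the primer sequences are from the study's supplement. The alternatives were other scalings, filters and tools (DESeq2 1.42.0, limma 3.58.1 with a pseudocount of 1 or 10 on log2 TPM), a block for the replicate letter, no covariate, and leaving out libraries. The counts of miRNAs that do not overlap without single libraries, the split of calls by direction, and novel_5 without both 30d C libraries, were added after the data were seen.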

Additional observations from a re-analysis of the deposited data

Results flagged for a closer look

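The values below stood far from the other 5 libraries of their time, by the gap to the nearest library as a share of the range. For miRNAs the gap was taken on log2 levels after TMM scaling with a prior count of 2, so TPM values give other gaps. For library totals it was taken on the counts themselves. Chance gives about 1 such group in 20 for normally distributed values, and the rate need not hold for scarce miRNAs with many 0 counts or for library totals. The number of groups screened is not given, so how many of these values chance would give is open. The gap was 0.682 for novel_15 in 90d -P replicate B (259 TPM). For novel_209 it was 0.660 in 30d -P replicate C and 0.720 in 90d +P replicate C. It was 1 for novel_125 in 90d -P replicate C, the only 90d library with any count, and 0.780 for aqc-miR477e in 30d -P replicate C, which held 0 counts. Among library totals it was 0.645 for 30d +P replicate C, the deepest library. Of these 6 values, 3 were in C libraries of 30d.

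In the interaction test of edgeR, 7 of 137 miRNAs had an unadjusted p under 0.05, about as many as chance alone gives, and 0 an adjusted one. Of the miRNAs named by the rule, these were aqc-miR399 and novel_269, and novel_73 had a larger fitted difference (8.32). The fitted difference, -P minus +P, was 6.52 on the log2 scale for aqc-miR399 and 4.16 for novel_269, with a Benjamini-Hochberg adjusted p of 0.530 for both. The value for aqc-miR399 depends on the prior count, because all 3 libraries of 90d +P held 0 counts, and is no bound.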

How the results depend on the processing

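The time effect calls adjusted for multiple testing changed with the tool, the filter, the scaling and the libraries kept. The count of 0 became 33 with DESeq2, 11 with the newer edgeR method, 2 with a stricter filter, 1 with totals that left out aqc-miR166e, 1 with no phosphorus covariate, 16 without all C libraries and 36 without both 30d C libraries. Leaving out 1 library gave 0 to 25 (25 with 30d -P replicate C left out, 3 with the C library of 30d +P and 1 with 90d -P replicate B left out). The remaining settings gave 0. The causes of these changes were not tested. The time effect calls by the unadjusted rule ranged from 25 to 61, with 61 when all 220 miRNAs were tested without a filter. The interaction gave 0 in all 16 alternatives.

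With the replicate block, 0 miRNAs passed the adjusted threshold and 33 the unadjusted rule (23 higher). Same-lettered libraries of 30d and 90d correlated in their deviations from group means at -0.221 to 0.214, and 2 of 6 libraries matched their own letter best, so letters were not taken as pairs across time. With that pairing the aqc-miR166e share difference was 16.8 points and the effective number difference -2.17, each with an exact sign-flip permutation p of 0.0625, against 0.01 without it. Without both 30d C libraries the aqc-miR166e share difference was 18.7, the effective number difference -2.27 (exact permutation p = 0.05 for both), the library total difference 620485 (p = 0.01) and the detected miRNA difference -2.08. Leaving out 1 library each, the library total difference was 375459 to 592775, the detected miRNA difference -3.03 to 3.57 and the known miRNA share difference 8.26 to 12.9.

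Signs turned for 5 known miRNAs, none of which passed the unadjusted rule with TMM on all libraries. aqc-miR159 was -0.062 with library totals, -0.19 and -0.052 with limma on log2(TPM + 1) and log2(TPM + 10), and -0.33 without all C libraries. aqc-miR160b was -0.15 with library totals, -0.020 with TMMwsp, -0.065 without a filter, -0.11 and -0.093 with the same limma fits, -0.13 without both 30d C libraries, -0.28 without all C libraries, and -0.11 to 0.66 leaving out 1 library. aqc-miR396b was 0.061 when the totals left out aqc-miR166e, 0.092 with the stricter filter, 0.11 with the replicate block within phosphorus, and -0.44 to 0.22 leaving out 1 library. aqc-miR398b was -2.28 to 0.18 leaving out 1 library. aqc-miR399 was 0.62 with the newer edgeR method, 0.075 with limma on log2(TPM + 10) and 0.71 with no phosphorus covariate.

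Depth limits scarce miRNAs most. A level under 2.05 to 7.89 TPM cannot be told from 0 in a single library, and the 30d libraries were mostly shallower.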
